A study of Mus musculus with 6 samples.

Results

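Tight junction genes were examined in T1 and T2 cells, a pair of tumor cell populations of the mouse. The members are 9 genes given by symbol, the claudins Cldn1, Cldn3, Cldn4, Cldn6 and Cldn7, the occludin gene Ocln, the scaffold genes Tjp1 and Tjp3, and the junctional adhesion molecule gene F11r. All 9 were found among the 24129 gene names of the normalized counts. RNA-seq was made of T1 and T2 cells, named 4T1A and 4T1NA in the labels, with 3 libraries each. Both populations trace back to the 4T1 line of mouse mammary carcinoma, which carried a GFP tag and had formed a mammary tumor in BALB/c mice. T1 cells had low GFP, grew as adherent epithelial cells and are called aggressive in the labels. T2 cells had high GFP, grew round and loosely attached, and are called non-aggressive. The study compared them to find the genes behind these differing behaviours.

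Both populations were obtained by a second sort on GFP. The sorted material was a culture of fibroblasts from the tumor that GFP-positive tumor cells had overgrown. Both were kept in DMEM/F-12 medium with serum. T2 cells were passaged in the manner of a suspension culture, without trypsin. The way of growth therefore cannot be told apart from the population. The replicates are called independent in the labels, and no source says that they came from separate animals, so the p-values measure the spread between these samples only.

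Tight junctions close the space between neighbouring epithelial cells near their apical side and separate the apical from the basolateral membrane. Claudins are membrane proteins that form the strands of the junction, and each cell type uses its own mixture, some sealing and some letting ions pass. Occludin and its MARVEL relatives and the junctional adhesion molecules lie beside the claudins in the membrane. The ZO proteins, among them those that Tjp1 and Tjp3 encode, hold these membrane proteins from the inside and link them to actin. In mammary epithelium, claudins such as claudin 3, claudin 4 and claudin 7 are markers of the luminal cells, and tumors that lack them are known as claudin-low.

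The 6 libraries held between 18133227 and 20839686 reads on genes. The deposited values are read counts divided by 1 size factor for each library, so that 1 read is worth 0.928 to 1.06 normalized counts. The test was limma, applied to log2(normalized count + 1) of the 11514 genes whose mean over the libraries reached 10 normalized counts. A fold change on this scale understates the change of low genes. Of the 11514 genes, 25.1% were higher and 24.4% lower in T1 at an adjusted p-value under 0.01, together 49.5%. A second filter, which also asked for an absolute log2 fold change above 2, left 4.17% higher and 4.2% lower. The T1 and T2 values did not overlap for 68.1% of the genes.

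Among the members, 5 of 9 passed the filter on low values, which were Cldn4, Cldn6, Ocln, Tjp1 and F11r. Of these 5, 3 were higher in T1 (Cldn4, Tjp1 and F11r), 0 were lower, and 2 did not pass the test (Ocln and Cldn6). Of all genes tested, 25.1% were higher and 24.4% lower. The count of 0 lower members in limma was also 0 at an unadjusted p under 0.05, and 0 by edgeR and by DESeq2. Of the 5, Cldn4 alone was past both filters, which 4.17% of all genes passed as higher in T1. The groups did not overlap for 3 of the 5 members, beside the 68.1% of all genes. Cldn7 and Tjp3 were read at low levels, mostly in T1, and Cldn1 and Cldn3 had at most 3 reads in any library. The median log2 fold change of the 5 members was 0.56, and that of all genes tested was -0.01.

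**Figure D1:**
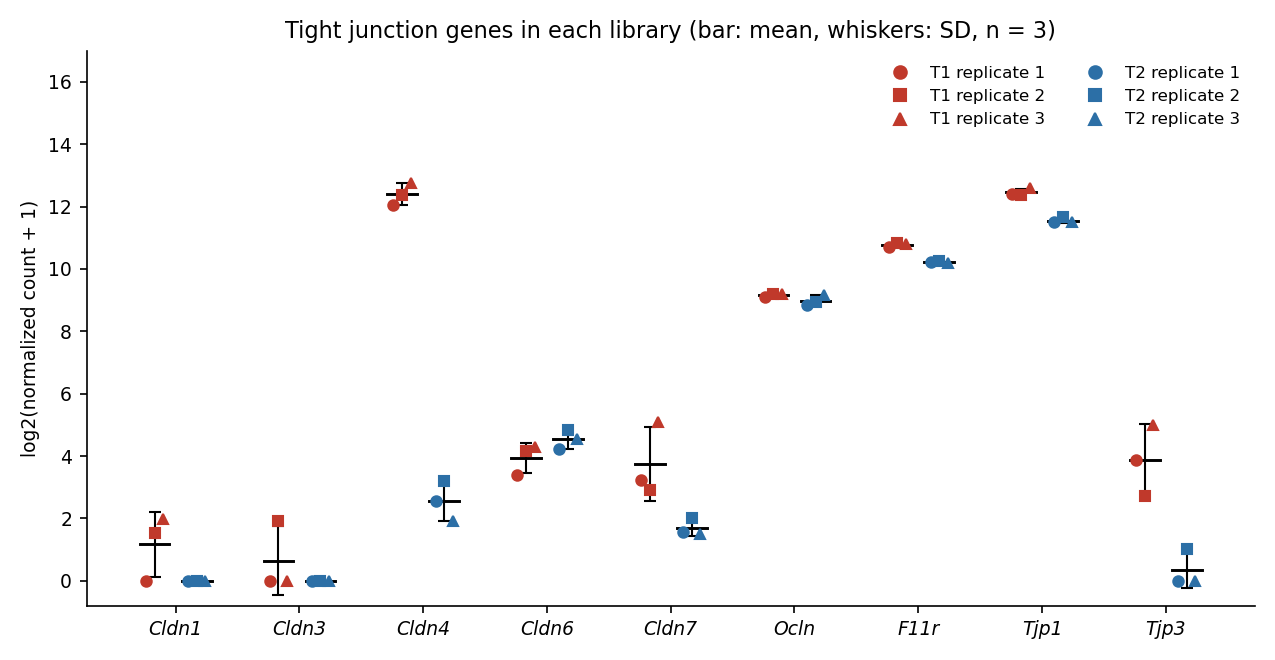
Values of the 9 tight junction genes in each library, as log2(normalized count + 1) on the vertical axis, with T1 in red and T2 in blue, the mean as a bar and the SD as whiskers (n = 3). Cldn4 lies between 4291 and 7001 normalized counts in T1 and between 2.78 and 8.19 in T2, and Ocln and Cldn6 overlap between the groups. Cldn1 and Cldn3 are at 0 in each T2 library and reach at most 2.93 and 2.79 normalized counts in T1.

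Cldn4 encodes claudin 4, a claudin of luminal mammary and other simple epithelia. It lies on the minus strand of chromosome 5 (mm10, 134945119 to 134946934) and has 1 annotated transcript, whose 1816 exonic bases span the gene without an intron. The 3 T1 libraries held 4291, 5297 and 7001 normalized counts of Cldn4. The 3 T2 libraries held 4.90, 8.19 and 2.78. All T1 values lay far above all T2 values, and the T1 libraries spread more in absolute terms than those of the other members. From 16924 reads in T1 and 16 reads in T2, the rate in T1 was 1068-fold that in T2 (exact 95% interval 658 to 1870, counting error only). The log2 fold change was 9.84 ± 0.30 (SE; 95% interval 9.18 to 10.50; adjusted p = 3.40e-09 in limma). Only 5 of the 11514 genes had a larger log2 fold change, so that Cldn4 ranked 6th. In bulk RNA, fewer cells with the transcript and less transcript in each cell cannot be told apart.

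The promoters of Cldn4, of its neighbour Cldn3, which had at most 3 reads in any library, and of 3 further members are shown. Of these, Cldn4 alone differed widely between the populations (log2 fold change 9.84). The log2 fold changes of Tjp1, F11r and Cldn6 were 0.91, 0.56 and -0.59. They are from RefSeq (GRCm38.p6), with 250 bases before and 50 bases after the start of transcription, written 5′ to 3′ on the strand of the gene. Capitals mark the letters CAGGTG on either strand, the E-box that repressors such as Snai1, Snai2, Zeb1 and Zeb2 are known to bind.
Cldn4, chr5:134946885-134947184, minus strand: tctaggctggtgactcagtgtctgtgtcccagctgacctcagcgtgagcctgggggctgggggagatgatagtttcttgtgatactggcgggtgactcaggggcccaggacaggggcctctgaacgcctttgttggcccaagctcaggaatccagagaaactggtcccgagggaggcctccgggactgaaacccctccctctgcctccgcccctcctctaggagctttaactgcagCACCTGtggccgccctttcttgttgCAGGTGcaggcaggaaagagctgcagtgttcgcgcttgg
Cldn3, chr5:134985964-134986263, plus strand: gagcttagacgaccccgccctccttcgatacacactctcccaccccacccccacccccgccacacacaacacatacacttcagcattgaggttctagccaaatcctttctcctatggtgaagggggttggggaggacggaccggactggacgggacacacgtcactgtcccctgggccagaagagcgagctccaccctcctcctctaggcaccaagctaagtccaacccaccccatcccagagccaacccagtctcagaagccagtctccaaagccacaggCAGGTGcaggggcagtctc
Cldn6, chr17:23679115-23679414, plus strand: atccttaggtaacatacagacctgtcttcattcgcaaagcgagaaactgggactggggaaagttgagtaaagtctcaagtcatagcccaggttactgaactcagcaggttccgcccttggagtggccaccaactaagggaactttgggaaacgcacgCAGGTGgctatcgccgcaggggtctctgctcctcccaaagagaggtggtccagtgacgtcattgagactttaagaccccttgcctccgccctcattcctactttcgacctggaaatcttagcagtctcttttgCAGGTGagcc
Tjp1, chr7:65371195-65371494, minus strand: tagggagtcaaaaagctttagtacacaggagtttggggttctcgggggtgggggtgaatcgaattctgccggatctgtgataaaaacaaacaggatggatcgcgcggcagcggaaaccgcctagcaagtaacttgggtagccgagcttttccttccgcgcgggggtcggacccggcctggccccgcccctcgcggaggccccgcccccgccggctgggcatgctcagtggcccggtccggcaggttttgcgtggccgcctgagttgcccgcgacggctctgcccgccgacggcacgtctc
F11r, chr1:171437311-171437610, plus strand: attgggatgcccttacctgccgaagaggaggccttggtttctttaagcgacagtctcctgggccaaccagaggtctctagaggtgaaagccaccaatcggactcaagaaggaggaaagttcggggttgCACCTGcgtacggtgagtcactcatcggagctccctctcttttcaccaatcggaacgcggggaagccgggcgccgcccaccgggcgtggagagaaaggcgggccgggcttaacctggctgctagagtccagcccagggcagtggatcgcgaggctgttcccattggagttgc

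Counted from the start of transcription, the Cldn4 promoter held the letters at -14 and 12, that of Cldn6 at -93 and 41, that of Cldn3 at 32 and that of F11r at -122, while the Tjp1 window held none. The Tjp1 window lies within the GENCODE bounds of the gene, which extend farther upstream. In all, RefSeq gave 12 promoter windows for the 9 members. The E-box was in 9 of the 12 windows, which belonged to 7 members. The Ocln windows overlap, and the same E-box, at -213 and at 8, was counted in both. Over all 32851 promoter windows of the same length, 20.2% held the E-box, a share of windows and not of genes. The other motif searched, AACNGGTT on either strand, which grainyhead-like factors are known to bind, was in 2.09% of all windows and in those of 0 members. The match of letters is a description and no sign that a factor bound there. E-boxes were found in members that were higher in T1 (Cldn4, F11r), in members that did not pass the test (Cldn6, Ocln) and in one with at most 3 reads in any library (Cldn3).

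Tjp1 encodes ZO-1, the scaffold that nucleates the junction strands. It lies on the minus strand of chromosome 7 (65296165 to 65527781) and has 7 annotated transcripts. Its normalized counts were 5454, 5321 and 6187 in T1 and 2887, 3223 and 2915 in T2. The T1 and T2 values did not overlap. The log2 fold change was 0.91 ± 0.08 (SE; 95% interval 0.72 to 1.09; adjusted p = 6.84e-06 in limma), a 1.88-fold difference that does not reach the filter of 2 on the log2 scale. By this measure 88.8% of all genes tested had a smaller log2 fold change than Tjp1. The annotation also has the small genes Gm44792, Gm44794 and Gm44795 within its bounds, and the library kit named in the labels does not mark strand, so their reads cannot be told apart from those of Tjp1 where exons overlap.

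F11r encodes JAM-A, an adhesion molecule of the immunoglobulin family that recruits polarity proteins to the forming junction. It lies on the plus strand of chromosome 1 (171437535 to 171464603). The T1 libraries held 1675, 1812 and 1796 normalized counts and the T2 libraries 1194, 1228 and 1168. The groups did not overlap and the spread within each was small, with 1761 ± 74.8 in T1 and 1196 ± 29.8 in T2 (mean ± SD, n = 3). The log2 fold change was 0.56 ± 0.08 (SE; 95% interval 0.38 to 0.73; adjusted p = 0.000134 in limma).

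Ocln, the occludin gene on the minus strand of chromosome 13 (100496507 to 100552718), was measured at similar levels in both populations. Its values were 544, 584 and 585 normalized counts in T1 and 458, 488 and 576 in T2. The highest T2 library lay within the range of T1. The log2 fold change was 0.17 ± 0.11 (SE) with a 95% interval of -0.08 to 0.43, and the adjusted p was 0.207 in limma. The interval leaves room for a difference of up to 1.35-fold in favour of T1, and does not show that the populations are alike.

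Cldn6, on the plus strand of chromosome 17 (23679249 to 23682446), encodes a claudin of embryonic epithelia. It held 9.52, 16.7 and 18.5 normalized counts in T1 and 17.6, 27.6 and 22.3 in T2, from 46 and 69 reads. The ranges overlapped. The log2 fold change of -0.59 ± 0.35 (SE) had a 95% interval of -1.36 to 0.19 and an adjusted p of 0.165 in limma, so the difference did not pass the test. From the reads alone, the rate in T1 was 0.673 times that in T2, with an exact 95% interval of 0.453 to 0.992 that covers counting error only and leaves out the spread between replicates. Cldn6 was the lowest of the tested members, with a mean higher than that of only 4.07% of all genes tested.

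Cldn7 and Tjp3 fell below the filter and carry no p-value in the comparison. Cldn7, on the plus strand of chromosome 11 (69964779 to 69967885), encodes claudin 7, which is found along the lateral membrane of many epithelia. It held 8, 7 and 34 reads in the T1 libraries and 2, 3 and 2 reads in the T2 libraries. The rate in T1 was 7.07-fold that in T2 (exact 95% interval 3.19 to 18.5, counting error only), and all T1 values were above all T2 values. T1 replicate 3 held most of these reads, and without it the ratio of the mean normalized counts fell from 6.99 to 3.26, with the groups still apart. In the fit without the filter, the log2 fold change of Cldn7 was 2.05 with an adjusted p of 0.0105 in limma.

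Tjp3, on the minus strand of chromosome 10 (81273207 to 81291581), encodes ZO-3, the ZO protein restricted to epithelia. The T1 libraries held 13, 6 and 32 reads and the T2 libraries 0, 1 and 0. The rate in T1 was 51.5-fold that in T2, with an exact 95% interval of 8.84 to 2074 that reflects the single read in T2. Without T1 replicate 3, the ratio of means fell from 49.4 to 28.3. In the fit without the filter, the log2 fold change was 3.53 with an adjusted p of 0.000477 in limma. The log2 difference was 4.27 with a pseudocount of 0.5 and 1.86, under the second filter, with a pseudocount of 5. The end of Tjp3 overlaps that of Apba3 on the other strand by 40 bases, and Apba3 was itself higher in T1 (810 ± 186 against 494 ± 50.2 normalized counts, SD, n = 3; log2 fold change 0.69, adjusted p = 0.00306 in limma). Apba3 no longer passed in limma without the variance trend (adjusted p = 0.0143), without T2 replicate 1 (0.0105) or without T2 replicate 3 (0.0184). Reads in the overlap cannot be assigned to a strand, and their part in the Tjp3 value was not tested.

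Cldn1, on the minus strand of chromosome 16 (26356642 to 26371841), and Cldn3, on the plus strand of chromosome 5 (134986214 to 134987472), encode further sealing claudins. Cldn1 had 0, 2 and 3 reads in the T1 libraries and 0 in each T2 library. Cldn3 had 0, 3 and 0 reads in T1 and 0 in each T2 library. With no library over 3 reads, neither gene gives a fold, and a difference was not detectable at this depth. An antisense gene, Wbscr25, overlaps Cldn3.

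T1 replicate 3 held the highest value of the T1 libraries for 7 of the 9 members. Over all genes tested this library was the highest of the T1 libraries for 41.4%. F11r and Cldn3 were highest in T1 replicate 2. Leaving out T1 replicate 3 changed the log2 fold change of Tjp1 to 0.84, and Cldn4, Tjp1 and F11r each remained past an adjusted p of 0.01 without it. Its part in the values of Cldn7 and Tjp3 is given with them.

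Levels of different genes were compared per kilobase of exon, as normalized counts divided by the exonic length in GENCODE. In T1 cells the order of the members was Cldn4 (3045 ± 754 normalized counts per kilobase), Tjp1 (724 ± 59.7), F11r (661 ± 28.1) and Ocln (135 ± 5.53), each apart from the next in all libraries (SD, n = 3). Far below came Cldn6 (8.68 ± 2.77), Cldn7 (8.24 ± 7.63) and Tjp3 (4.54 ± 3.53), followed by Cldn3 and Cldn1, and the neighbours in this lower part of the order overlapped in range. In T2 cells the order began with F11r (449 ± 11.2), Tjp1 (385 ± 23.9), Ocln (120 ± 14.5) and Cldn6 (13.1 ± 2.91), with no overlap between neighbours. Cldn4 came 5th in T2 with 2.91 ± 1.50, and its range overlapped that of Cldn7 (1.18 ± 0.35). Cldn4 thus went from the first to the fifth place, and the next 3 places in T1 (Tjp1, F11r and Ocln) were the first 3 in T2, with Tjp1 and F11r exchanged.

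The claudins were then read as a family. The table held 23 claudins by name, of which 8 had no read, 4 had at most 3 reads in each library, and 11 had more than 3 reads in a library. Their summed level was 2893, 3470 and 4394 normalized counts per kilobase in the T1 libraries and 249.9, 235 and 233 in the T2 libraries. The groups were far apart, and the T1 mean was 15.0 times that of T2. The log2 difference was 3.89 (exact permutation test, two-sided, n = 3 against 3, p = 0.1, the smallest p that 3 samples against 3 allow). The size depends on which genes are counted as claudins: with Cldnd1, a claudin domain gene, in the sum, an alternative added after seeing the data, the log2 difference was 2.41.

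The make-up of the sum differed as well. Cldn4 made up 84.5% ± 3.06 of the claudin level in T1 and 1.22% ± 0.64 in T2 (SD, n = 3 each). In T2 cells most of the claudin level came from Cldn12 (79.4% ± 2.18), a claudin that lacks the PDZ-binding end of most family members, which made up 8.96% ± 2.24 in T1. The level of Cldn12 itself was lower in T2, at 190 ± 12.6 against 311 ± 16.4 normalized counts per kilobase in T1 (SD, n = 3). Its larger share in T2 is thus set against the smaller T2 sum. Cldn9 gave 5.32% ± 1.01 in T1 and 6.15% ± 2.77 in T2, and these shares overlapped. Cldn6 gave 0.24% ± 0.04 in T1 and 5.50% ± 1.37 in T2, set against the smaller T2 sum, and its own level did not pass the test. Without Cldn4 the sum was 541 ± 11.2 in T1 and 236 ± 9.49 in T2 (SD, n = 3), a ratio of 2.29 with no overlap (exact permutation p = 0.1).

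**Figure D2:**
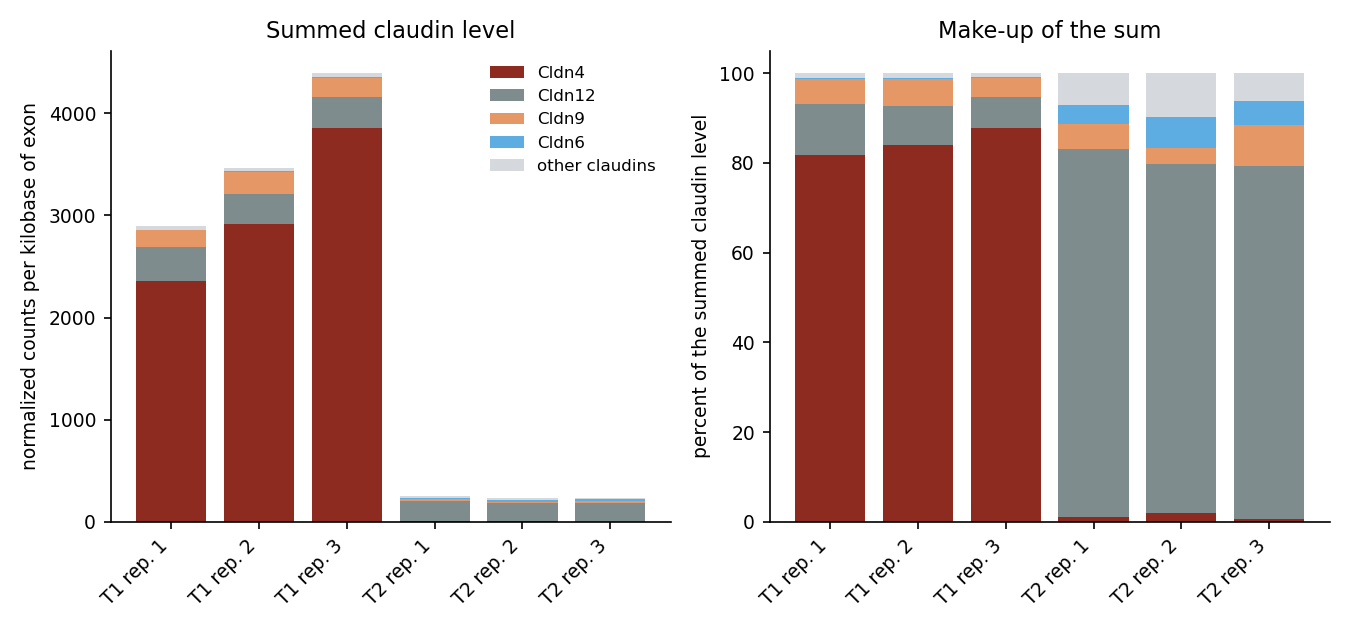
Summed claudin level in each library in normalized counts per kilobase of exon (left, axis from 0) and the share of each claudin in that sum in percent (right). The T1 bars reach 2893 to 4394 and are mostly Cldn4, and the T2 bars reach 233 to 249.9 and are mostly Cldn12.

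Of the claudins that are not members, 19 names were listed and 4 were tested. Cldn9 (chromosome 17, minus strand) held 238, 304 and 265 normalized counts in T1 and 20.6, 12.3 and 30.6 in T2, a log2 fold change of 3.69 ± 0.29 (SE; adjusted p = 2.54e-06 in limma). Cldn23 rose by 2.26 ± 0.43 (adjusted p = 0.00102) and Cldn12 by 0.71 ± 0.09 (adjusted p = 6.98e-05) on the log2 scale in T1 relative to T2. The fourth was Cldnd1, for which RefSeq gives Cldn25 as an older name and which encodes a claudin domain protein; it was lower in T1 by a log2 fold change of -0.59 (adjusted p = 0.000168). Cldnd1 was not counted in the claudin sum.

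Claudins below the filter were read mainly in T2 in some cases. Cldn2, a claudin that forms cation pores, had 1 read in T1 and 18 reads in T2, which gave 1.96, 10.2 and 5.57 normalized counts in the T2 libraries. The rate in T1 was 0.0561 times that in T2 (exact 95% interval 0.00135 to 0.355, counting error only), and in the fit without the filter its log2 fold change was -2.24 with an adjusted p of 0.0060 in limma. The size depends on the pseudocount, with a log2 difference of -2.89 at a pseudocount of 0.5 and -0.96 at 5. Cldn15, Cldn18, Cldn20 and Cldn22 each had more than 3 reads in some library, with means between 0.64 and 4.26 normalized counts in either group, and their groups overlapped.

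Several members lie beside another junction gene, and such pairs were compared within the libraries. The pair of Cldn1 and its neighbour Cldn16 was not compared, since Cldn16 had no read. Cldn4 and Cldn3 are 39279 bases apart on chromosome 5 with no protein-coding gene between them. The log2 difference between Cldn4 and Cldn3 within a library was 11.8 ± 1.19 in T1 and 2.56 ± 0.64 in T2 (SD, n = 3 each). Cldn3 had 0, 3 and 0 reads in T1 and 0 in each T2 library. Where it had no read, the difference is the value of Cldn4 alone, so it gives no measured ratio of the pair. On the other side of Cldn3, Abhd11 was higher in T1 (949 ± 48.4 against 301 ± 35.3 normalized counts; log2 fold change 1.66, adjusted p = 9.43e-07 in limma). On the other side of Cldn4, the gene Mettl27, listed as Wbscr27, had a log2 fold change of -1.06 with an adjusted p of 0.0479 and its groups overlapped; without T1 replicate 3 it was lower in T1 (-1.57, adjusted p = 0.00167).

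Cldn6 and Cldn9 point towards each other on chromosome 17 with 137 bases between their ends. Cldn9 was above Cldn6 by 4.12 ± 0.37 on the log2 scale in T1, and in T2 the difference was -0.15 ± 0.84 (SD, n = 3 each). The T1 and T2 differences did not overlap. Reads that run past the end of one gene into the other could not be assigned by strand, and this was not tested.

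Ocln lies 43238 bases from Marveld2, the gene of tricellulin, a MARVEL protein at the corners where cells meet. Marveld2 held 534, 581 and 664 normalized counts in T1 and 209.5, 180.2 and 177 in T2. All T1 values were above those of T2, unlike the values of Ocln. The log2 fold change of Marveld2 was 1.64 ± 0.13 (SE; adjusted p = 2.62e-06 in limma). Within a library, Marveld2 was above Ocln by 0.05 ± 0.12 in T1 and by -1.42 ± 0.29 in T2 (SD, n = 3 each), again with no overlap.

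The other related pairs were compared in the same way. Marveld3, the third MARVEL gene of the junction, held 170, 151 and 154 normalized counts in T1 and 0.98, 0 and 0.93 in T2. From 2 reads in T2, the rate in T1 was 243-fold that in T2, with an exact 95% interval of 66.9 to 2012 (counting error only), and the log2 fold change was 6.67 (adjusted p = 1.68e-07 in limma). Relative to Ocln, Marveld3 was at -1.84 ± 0.15 in T1 and at -8.34 ± 0.55 in T2 on the log2 scale (SD, n = 3 each). Per kilobase, Ocln was 37.7% ± 1.31 of the summed MARVEL level in T1 and 68.1% ± 4.31 in T2.

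Among the JAM family, F11r held 99.8% of the level per kilobase in T1 and 99.0% in T2. Jam2 and Jam3 had means under the filter. Jam2 held 0 to 3.17 normalized counts in the T1 libraries and 7.83 to 13.9 in the T2 libraries, from 3, 1 and 0 against 8, 11 and 15 reads. Jam3 held 2.79 to 5.29 and 5.57 to 14.3, from 5, 3 and 3 against 6, 14 and 6 reads. Neither overlapped, as for 68.1% of all genes tested, but both were low and carry no p-value. The Jam3 groups were apart by only a single read. Cxadr, a related adhesion molecule of the same membrane domain, was the 1 gene of this list that was tested, and it was lower in T1 (1540.3 ± 85.6 against 2073 ± 44.4 normalized counts; log2 fold change -0.43, adjusted p = 0.000736 in limma). F11r relative to Cxadr was at 0.19 ± 0.11 in T1 and at -0.79 ± 0.06 in T2 on the log2 scale (SD, n = 3 each). In these 6 within-library comparisons, including that of Cldn4 with Cldn12, the T1 values all lay above the T2 values. Each had an exact permutation p of 0.1, which is also the value after adjustment over the 6. The pairs were chosen after their values were seen, and the direction of each follows from the fold changes of its genes. The shared direction is therefore no separate result. Single genes did not overlap between T1 and T2 for 68.1% of all genes tested.

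**Figure D3:**
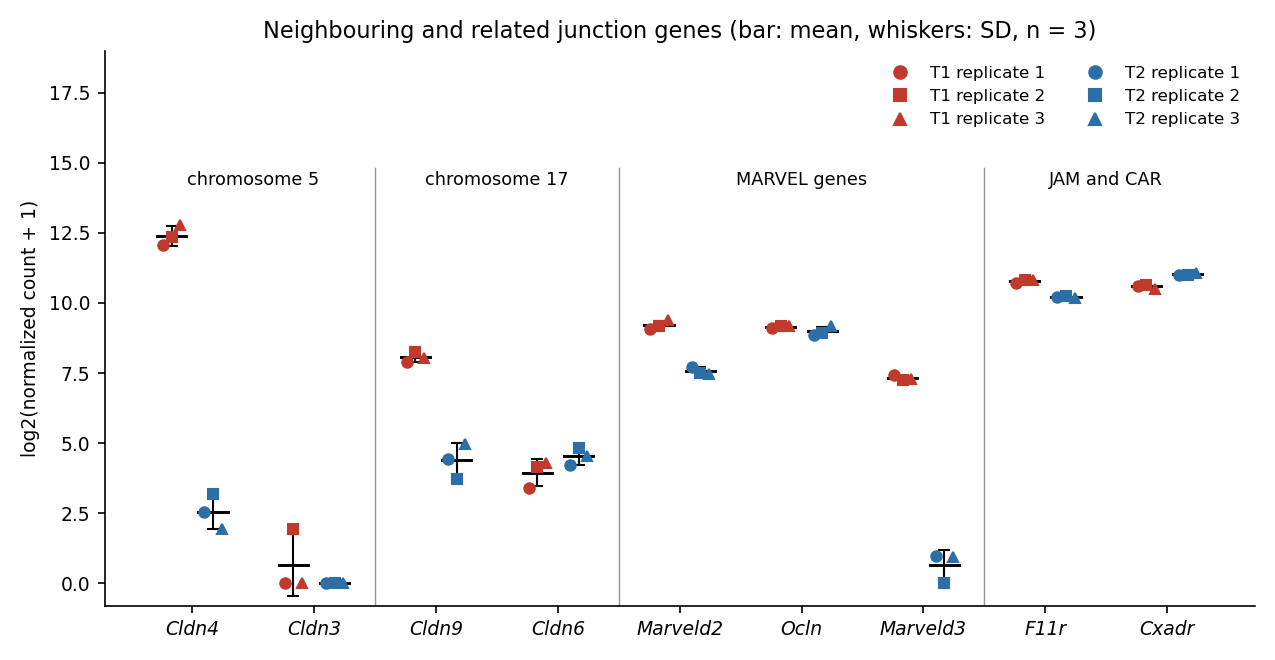
Neighbouring and related junction genes in each library, as log2(normalized count + 1) with T1 in red and T2 in blue, the mean as a bar and the SD as whiskers (n = 3). The members and their neighbours or relatives differ unequally between the populations, as with Marveld2 (log2 fold change 1.64) beside Ocln (0.17).

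The remaining neighbours differed from member to member. P3h2, next to Cldn1, was higher in T1 (log2 fold change 1.30, adjusted p = 5.04e-05 in limma), and Cldn16, on its other side, had no read. Beside Tjp1, Nsmce3, listed as Ndnl2, was higher in T1 by 0.87 (adjusted p = 4.75e-05), while Tarsl2 had a log2 fold change of 0.36 with an adjusted p of 0.0134, and passed by DESeq2 (0.00557) and in limma without T1 replicate 1 (0.00596). Pip5k1c, next to Tjp3, was lower in T1 (-0.56, adjusted p = 0.000263). Tnfrsf12a, next to Cldn6, had -0.27 with an adjusted p of 0.0116, and was lower in T1 by DESeq2 (0.00537) and in limma with quantile normalization (0.00390), with equal totals (0.00663) or without T2 replicate 3 (0.00797). Elp5 beside Cldn7 (-0.05), Gtf2h2 beside Ocln (0.05) and Alyref2 beside F11r (0.35) did not pass the test, and Slc2a4 and Tstd1 were below the filter.

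The 8 lists of further junction genes held 78 genes in all, of which 50 were tested, 31 were higher in T1, 10 were lower and 9 did not pass. This compares with 25.1% of all genes higher and 24.4% lower. Past both filters, 13 were higher in T1 and 1 was lower, beside 4.17% and 4.2% of all genes. Their median log2 fold change was 0.58, against -0.01 over all genes. The lists were chosen with earlier results of these data known, so these counts are a description and no test of the junction genes. They also pool activators with repressors and proteases with inhibitors, and they include Cldnd1.

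Of the MARVEL proteins and angulins, 3 of 5 genes were tested and all 3 were higher in T1. The third beside Marveld2 and Marveld3 was Lsr, an angulin that brings tricellulin to the corners of cells, with a log2 fold change of 0.75 (adjusted p = 9.97e-05 in limma). Ildr1 had no read.

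The other scaffolds of the junction plaque numbered 10, all tested, of which 6 were higher, 1 lower and 3 did not pass. Cgn encodes cingulin, which ties ZO proteins to actomyosin. It held 1698, 1593 and 1491 normalized counts in T1 and 47.0, 47.1 and 73.3 in T2, a log2 fold change of 4.84 ± 0.18 (SE; adjusted p = 1.19e-08 in limma). Inadl, the gene of the scaffold PATJ, rose by 1.10 on the log2 scale (adjusted p = 3.54e-06). Tjap1 was lower in T1 (-0.62, adjusted p = 0.000433), and Mpdz, the most abundant of those that did not pass, had a log2 fold change of 0.05. The median of the list was 0.43.

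The apical polarity complexes, which place the junction, had 11 genes on the list and 8 tested, with 5 higher, 1 lower and 2 not past. Crb3, the epithelial Crumbs gene, held 139.7, 101 and 154 normalized counts in T1 and 0.98, 0 and 0.93 in T2, a log2 fold change of 6.39 (adjusted p = 3.55e-07 in limma). From 2 reads in T2 the rate in T1 was 201.5-fold that in T2 (exact 95% interval 55.4 to 1670). Pard6b rose by 2.81 (adjusted p = 5.75e-07) and Prkci, an atypical protein kinase C, by 1.59 (adjusted p = 1.27e-07) on the log2 scale. Pard6g, another PAR6 gene, went the other way, with 1.96 ± 0.92 normalized counts in T1 and 31.1 ± 4.00 in T2 (SD, n = 3; log2 fold change -3.48, adjusted p = 3.33e-05). Lin7c did not pass (-0.01).

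Genes that signal from the junction or carry its proteins were mixed, with 4 of 10 higher, 3 lower and 3 not past, and a median log2 fold change of -0.16. Amotl2 (1.44), Ybx3 (0.94), which encodes the ZO-1 partner ZONAB, and Arhgef18 (0.82) had the largest increases in T1, with adjusted p-values of 2.40e-05, 3.26e-06 and 0.000231 in limma. Arhgef11 (-1.36), Rab13 (-0.83), a GTPase of junction traffic, and Amot (-0.50) were lower, with adjusted p-values of 7.02e-06, 0.000386 and 0.00149. Amotl1 had a log2 fold change of -0.34 with an adjusted p of 0.0185 in limma, and it was lower in T1 by DESeq2 with all samples (adjusted p = 0.00669) and in limma without T1 replicate 3 (0.00299) or T2 replicate 1 (0.00817).

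The claudin partners and the membrane proteases that act on them were all tested, with 5 of 6 higher and 1 lower. Epcam encodes EpCAM, which binds claudins and keeps them from being degraded. It held 2989, 2931 and 3502 normalized counts in T1 and 37.2, 30.7 and 36.2 in T2 (log2 fold change 6.46, adjusted p = 4.04e-10 in limma). St14, the gene of matriptase, rose by 4.76 (adjusted p = 5.10e-10), and Spint1, the gene of its inhibitor HAI-1, was lower in T1 (-0.70, adjusted p = 3.37e-05). Another inhibitor gene on the list went the other way and was among the 5 higher in T1.

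Of the transcription regulators, 11 were listed and 8 tested, with 5 higher, 2 lower and 1 not past. The 3 largest increases in T1 were those of Ovol1 (4.50, adjusted p = 2.09e-07 in limma), Grhl1 (3.28, adjusted p = 3.20e-05) and Ovol2 (2.35, adjusted p = 0.000354), which act in epithelial differentiation. Twist1 (-1.44, adjusted p = 1.51e-06) and Zeb2 (-1.41, adjusted p = 3.50e-06), repressors of epithelial genes, were lower in T1. Snai1 held 338, 325 and 265 normalized counts in T1 and 550.3, 1201 and 383 in T2, with a log2 fold change of -1.04 and an adjusted p of 0.0182 in limma, and it was lower in T1 by edgeR with all samples (adjusted p = 0.00989) and in limma without T2 replicate 3 (0.00386). Zeb1 was below the filter with 11.1 ± 1.70 normalized counts in T1 and 1.92 ± 0.88 in T2, the opposite order to Zeb2. Snai2 had no read. Grhl3 had 34 reads in T1 and 0 in T2, and was at least 3.82-fold higher in T1 when each T2 library is set at 3 reads.

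**Figure D4:**
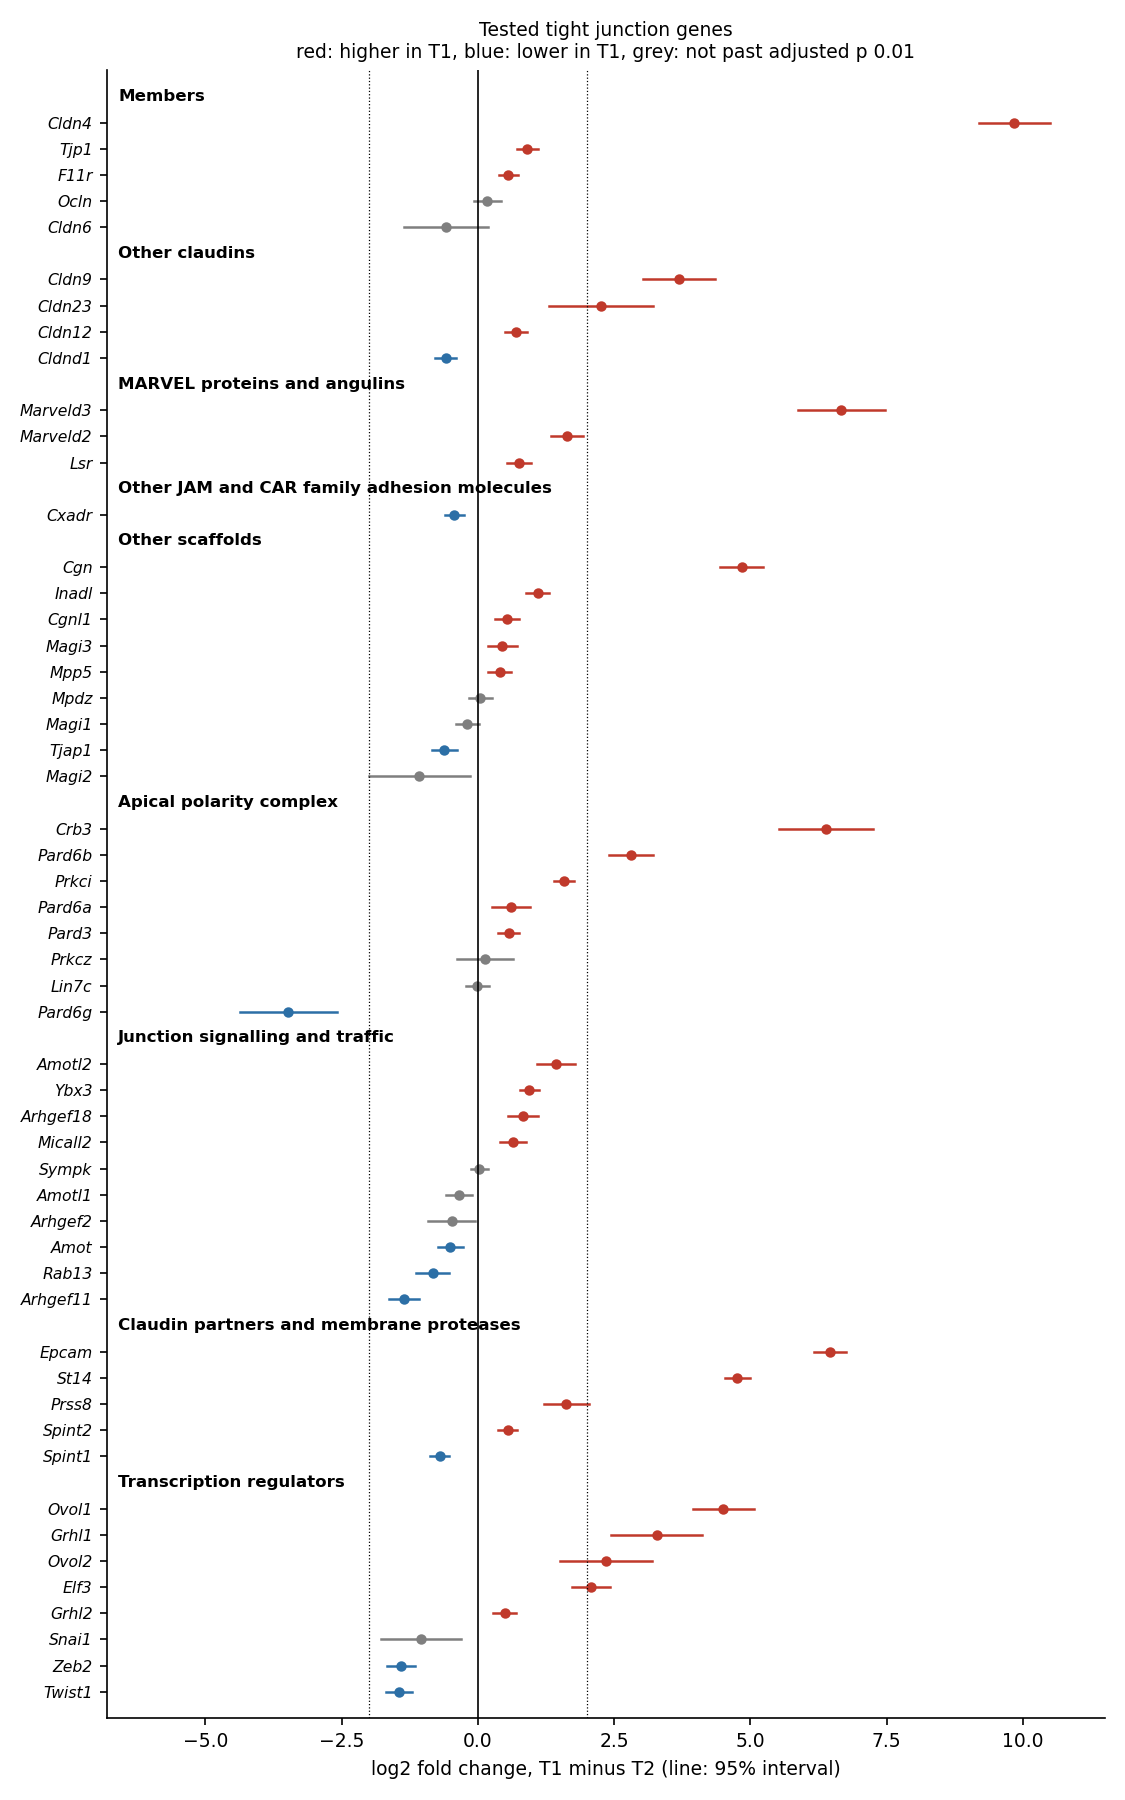
Log2 fold changes (T1 minus T2, horizontal axis) of the 5 tested members and 48 of the 50 tested genes of the 8 other lists, with 95% intervals as lines, dotted lines at -2 and 2, and the colour giving the call at an adjusted p of 0.01. Among the genes shown, Cldn4 (9.84) lies farthest to the right and Pard6g (-3.48) farthest to the left.

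The mean of Cldn4 over the 6 libraries was higher than that of 85.6% of all genes tested. Tjp1 was more abundant, above 92.2% of genes, and F11r above 70.8%, with Ocln in the middle at 43.2%.

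**Figure D5:**
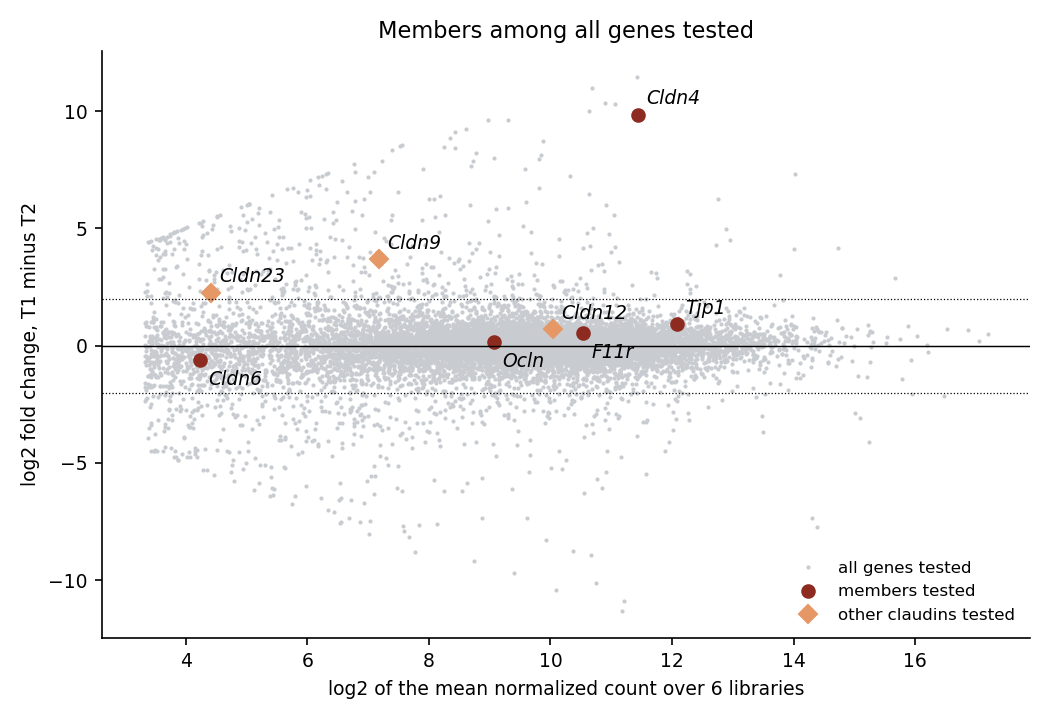
All 11514 genes tested, by the log2 of their mean normalized count (horizontal axis) and their log2 fold change (T1 minus T2, vertical axis), with the 5 tested members in dark red and 3 tested claudins that are not members in orange. Cldn4 sits near the top edge at 9.84, while Ocln, F11r and Tjp1 lie between 0.17 and 0.91 within the dense band of genes.

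Genes whose pattern over the 6 libraries was most like that of a member were found from the root mean square difference of centred log2 values. For Cldn4 these were Moxd1 (0.52), Krt14 (0.60) and Wnt7a (0.66). For Tjp1 they were Ptprf (0.035), Pick1 (0.040) and Mllt4 (0.045). Those nearest to F11r were Rac3 (0.021), Colgalt1 (0.021) and Sra1 (0.029), and those nearest to Ocln were Mettl10 (0.022), Hibch (0.032) and Cpne3 (0.032). Cldn6 was followed by Prelid2, 4933421O10Rik and Ric3 (0.14, 0.15 and 0.16). The larger differences around Cldn4 and Cldn6 came with larger SDs of their log2 values within a group (0.35 to 0.64 for Cldn4, against 0.04 to 0.06 for F11r). The measure also takes in the difference between the groups. The log2 fold changes of Moxd1, Krt14 and Wnt7a were 9.63, 10.36 and 8.71, beside 9.84 for Cldn4.

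The labelled cell type was checked against markers. The keratin genes Krt8 and Krt18, of simple epithelia, were abundant in both populations and did not pass the test (log2 fold changes 0.20 and 0.10). The T1 values of Krt8 still all lay above its T2 values, while those of Krt18 overlapped. The groups did not overlap for 68.1% of all genes tested. Cdh1, the E-cadherin gene, was at 14748 ± 908 normalized counts in T1 and 465 ± 16.2 in T2 (SD, n = 3; adjusted p = 7.63e-11 in limma). Krt14, a keratin of basal cells, was at 3795 ± 77.0 in T1 and 3.04 ± 3.70 in T2 (log2 fold change 10.36, adjusted p = 1.91e-07). Krt5 had no read. The 6 epithelial markers summed to 64001 to 69949 normalized counts in T1 and 37479.5 to 43407 in T2. Of 8 fibroblast markers, 4 were at 0 in all libraries (Col3a1, Lum, Pdgfrb and Thy1). Col1a1 was at 22.4 ± 6.78 in T1 and 0.33 ± 0.57 in T2, and Pdgfra at 199 ± 7.98 and 1098.5 ± 170.5. All 8 fibroblast markers summed to 225 to 241 normalized counts in T1 and 997 to 1295 in T2, mostly Pdgfra. The summed fibroblast markers other than Pdgfra went the other way, at 20.1 to 40.0 normalized counts in T1 and 0 to 0.98 in T2. The 8 leukocyte markers summed to 3.17 to 15.8 in T1 and 14.3 to 19.5 in T2, with Tyrobp and Cd3e at 0, and the 8 endothelial markers to 4.88 to 18.0 and 0.98 to 18.4, with Kdr and Emcn at 0. The part of other cells in the low values of Cldn1, Cldn3, Cldn7 and Tjp3 was not tested.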

How the data were processed

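RNA of 3 T1 and 3 T2 samples was analysed. Parental 4T1GFP cells are not analysed here. Per the submitters' notes and the study's methods, TopHat2 (alignment, mm10), HTSeq (gene counts) and DESeq2 (normalization) were used by the authors. The deposited signal is thus a gene's read count divided by a size factor. The annotation and strand setting are not given in the sources used here. Up to 0.01 reads, 100% of values were whole reads, so reads could be recovered (0 value columns were left unused). Names of 27 genes had become dates and are not named here. Coordinates and exonic lengths are from GENCODE M21, of the same build, with 23103 names matched by symbol and 485 through RefSeq synonyms.

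Log2(normalized count + 1) was compared with limma 3.58.1 in R 4.3.3 (variance trend, Benjamini-Hochberg over all genes with a mean of at least 10). Scripts were tested on simulated data. Single values were compared by exact permutation, and reads by an exact conditional binomial interval. Alternatives were pseudocounts of 0.5 and 5, no filter or a minimum mean of 50, quantile normalization, equal totals, no variance trend, edgeR 4.0.16 and DESeq2 1.42.0 on the recovered reads, the replicate number as a block, wider filters, other lengths and each replicate left out.

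The members and gene lists were chosen with earlier results of these data known. Named are all members, every claudin with more than 3 reads in a library, the nearest protein-coding gene on each side of a member, and the 3 genes most like each tested member. In each list, up to 3 genes with the largest change in each direction past an adjusted p of 0.01 and the most abundant gene that did not pass are named. Further genes named were chosen after their values were seen: those at or near 0 reads, Jam2, Jam3, Zeb1, Grhl3, Krt8 and Krt5. Some genes that the rule would name are not reported here. The related pairs compared within a library and the exclusion of Cldnd1 from the claudin sum were also chosen then.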

Additional observations from a re-analysis of the deposited data

How the results depend on the processing

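No alternative gave a lower member, and 3 members were higher in T1 under each of them except without the filter on low values, where Tjp3 entered and 4 were higher, 2 of them past both filters at a pseudocount of 1 (1 otherwise). Cldn4, Tjp1 and F11r stayed past an adjusted p of 0.01 in all 16 alternatives run for each, with log2 fold changes of 9.08 to 10.16, 0.84 to 0.96 and 0.54 to 0.59. Ocln (0.10 to 0.27) passed in none of 16 and Cldn6 (-0.76 to -0.31) in none of 15, since a mean of at least 50 leaves Cldn6 out. With wider filters (adjusted p under 0.05 and a log2 fold change above 1), 1135 genes were higher and 1310.0 lower in T1, against 480 and 484. On the recovered reads, edgeR called 5716 genes at an adjusted p under 0.01 (5660.0 of them also called by limma) and DESeq2 6067 (5645 shared), against 5701 by limma. The counts of further junction genes were 28 to 32 higher and 9 to 12 lower over all alternatives, and 28 to 30 higher and 10 to 12 lower when a replicate was left out. The log2 difference of the claudin sum was 3.73 to 4.03 when a replicate was left out, and 2.41 with Cldnd1 in the sum, both added after seeing the data. When a replicate was left out, the direction of 5 genes that were low or changed little was not fixed: Elp5 ranged from -0.095 to 0.014, Gtf2h2 from -0.023 to 0.144, Lin7c from -0.069 to 0.084, Mpdz from -0.020 to 0.0995 and Slc2a4 from -1.08 to 0.12 on the log2 scale.

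Same-numbered samples correlated in their deviations from the group means at 0.057, 0.172 and 0.104, not all over 0.1, and T2 replicate 1 did not correlate best with its own number, so the numbers were not taken as pairs. With the replicate number as a block, 3 members were higher and 0 lower, 1 higher and 0 lower past both filters, 30 further junction genes were higher and 12 lower, and over all genes 2926 were higher and 2854 lower, or 481 and 486 past both filters. Under the block, Amotl1 (adjusted p = 0.00806), Snai1 (0.00219) and Mettl27, listed as Wbscr27 (0.00998), also passed as lower in T1, and no other named gene changed its call.

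The depth limits the low members. Cldn1 and Cldn3 rest on at most 3 reads a library, and Cldn7 and Tjp3 on at most 34. The cause of these differences was not tested.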
